A study of Homo sapiens with 4 samples.

Results

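TGF-beta and BMP response genes were examined in 22Rv1 cells, a human prostate cancer line, with CD276 knocked out. They were taken by name from the gene count table and are KLF10, ID1, ID2, ID3, SMAD3, SMAD6, SMAD7, SKIL, TGFBR1 and TGFBR2, 10 of 57014 named rows. All 10 were among the 18043 genes with enough counts to be tested. The study sequenced poly(A)-selected RNA of 2 CD276 knockout libraries, whose names carry sgCD276, and of 2 control libraries, which have a wild-type genotype and sgGFP in their names; both groups carry the replicate numbers 1 and 3. CD276 encodes B7-H3, a cell surface member of the B7 family of immune regulators, and the series concerns targeting DNA methylation and B7-H3 in prostate cancer. All cells were grown in RPMI medium with fetal bovine serum, and the labels name no added TGF-beta or BMP ligand or receptor inhibitor. They do not say whether the knockout cells are 1 clone or a pool, nor whether the replicates are separate cultures. All p-values here therefore reflect only how far these libraries spread, which may be technical.

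TGF-beta binds the receptor TGFBR2, which recruits and phosphorylates TGFBR1; TGFBR1 then phosphorylates SMAD2 and SMAD3, which enter the nucleus with SMAD4 and switch on genes such as SMAD7, SKIL and KLF10. BMPs act through the type I receptors ACVR1, BMPR1A and BMPR1B on SMAD1, SMAD5 and SMAD9, and their best known direct targets are the ID genes and SMAD6. ID proteins lack a DNA-binding domain and hold E proteins away from DNA, while SMAD6 and SMAD7 feed back to block the receptors. In prostate epithelium TGF-beta is known for restraining growth, and prostate cancer cells often lose part of that response. KLF10, SKIL and SMAD7 are called SMAD3-type outputs here and ID1, ID2, ID3 and SMAD6 ID-type outputs, although SMAD7 is induced by both arms and KLF10 and the ID genes also respond to serum and other signals.

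Gene counts summed to 24437926 and 25802417 in knockout replicates 1 and 3 and to 23206271 and 20079050 in control replicates 1 and 3. Levels are normalized CPM, counts scaled to a common library size after correction for composition. A mean ± SD is over the 2 libraries of a group, and each log2 fold change, knockout over control, carries its SE. A gene is said to rise or fall at an adjusted p under 0.05 (edgeR quasi-likelihood, Benjamini-Hochberg over all genes tested). By that rule 22.8% of all genes tested were called, 9.87% higher and 12.9% lower in knockouts; with library totals as the only scaling, the median of all genes moved by 0.11 and 2340 higher and 1781 lower genes took the place of 1780 and 2331. Mitochondrial transcripts made up 1.46% and 1.78% of counts in the knockouts, against 5.84% and 6.15% in the controls. Their part in the results was not tested. KLF10 and ID1, the called members, were called as well in a fit without these transcripts. That fit moved the median of all genes by 0.0, so it cannot show what part they had. CD276 itself was at 23.7 and 26.3 normalized CPM in the knockouts, against 47.4 and 54.4 in the controls (log2 fold change -1.03 ± 0.16, edgeR adjusted p = 0.00561; 0.0812 without control replicate 3). Gene-level counts cannot reveal a small edit in the transcript. Of 10 prostate epithelial markers, 5 had a positive and 5 a negative log2 fold change, and all were tested. KRT8, an epithelial keratin, was abundant and not called, at 886 ± 317 in knockouts and 1197 ± 70.7 in controls. The keratin KRT18 fell (-0.68 ± 0.19, edgeR adjusted p = 0.037), and CDH1, which encodes E-cadherin, rose (0.49 ± 0.15, edgeR adjusted p = 0.0439). The call of CDH1 held in 8 of 12 alternatives with every library, and both calls were lost without either control library (adjusted p of 0.251 to 0.477). All 12 stromal, endothelial and immune markers together summed to 17.9 and 21.7 normalized CPM in the knockouts, against 14.0 and 10.3 in the controls. Most of that was LUM, a proteoglycan gene that rose (0.84 ± 0.21, edgeR adjusted p = 0.0244), and PECAM1, CDH5 and CD3E had 0 counts in every library.

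The sequences upstream of the members were searched for letters that SMAD complexes are known to bind, and those of 4 members are shown. RefSeq promoter windows (GRCh38.p14) matched 9 of the 10 members, with more than 1 start for several; KLF10 had none. Shown are the 250 bases before a start of ID1 and SMAD6, ID-type outputs whose windows hardly overlap their own exons (6 and 8 bases), and before 1 of the starts of SMAD3 and of SMAD7 (0 exonic bases each). Capitals mark GTCTAGAC, the palindrome of the SMAD binding element, CAGAC, the core of the CAGA box, which reads GTCTG on the other strand, and GGCGCC, a GC-rich element bound by SMADs; none of these motifs contains another. ID1 is shown from chr20:31605039-31605288 (plus strand), SMAD6 from chr15:66701986-66702235 (plus strand), SMAD3 from chr15:67065352-67065601 (plus strand) and SMAD7 from chr18:48949334-48949583 (minus strand), all 5′ to 3′ toward the start.
ID1: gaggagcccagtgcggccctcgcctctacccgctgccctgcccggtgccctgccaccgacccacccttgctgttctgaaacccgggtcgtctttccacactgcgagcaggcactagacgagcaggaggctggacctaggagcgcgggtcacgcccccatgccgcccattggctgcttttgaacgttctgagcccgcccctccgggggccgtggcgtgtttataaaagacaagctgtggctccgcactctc
SMAD6: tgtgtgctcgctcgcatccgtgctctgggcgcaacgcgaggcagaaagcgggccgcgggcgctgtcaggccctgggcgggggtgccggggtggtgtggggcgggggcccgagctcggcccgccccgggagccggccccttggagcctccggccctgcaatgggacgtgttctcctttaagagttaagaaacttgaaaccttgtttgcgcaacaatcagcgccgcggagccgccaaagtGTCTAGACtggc
SMAD3: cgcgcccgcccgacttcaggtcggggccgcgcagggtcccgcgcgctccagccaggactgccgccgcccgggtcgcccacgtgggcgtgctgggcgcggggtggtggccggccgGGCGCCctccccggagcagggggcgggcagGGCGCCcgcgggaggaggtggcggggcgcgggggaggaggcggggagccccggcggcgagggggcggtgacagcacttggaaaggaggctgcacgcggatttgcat
SMAD7: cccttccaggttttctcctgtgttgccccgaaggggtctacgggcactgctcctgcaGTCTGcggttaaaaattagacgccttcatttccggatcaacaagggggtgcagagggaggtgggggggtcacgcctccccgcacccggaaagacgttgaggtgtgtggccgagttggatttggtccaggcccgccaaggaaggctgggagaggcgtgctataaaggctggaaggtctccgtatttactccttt

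The palindrome was found in SMAD6 alone among the members' windows, beginning 12 bases before the start, and in 0.182% of 35116 RefSeq windows of the same length. The windows of ID2, ID3, SMAD3 and SMAD7 all lie inside their annotated genes. For these genes the bases before the outermost annotated start were not searched. GGCGCC lay at 136 and 106 bases before the SMAD3 start shown, was also found in windows of SKIL and TGFBR1, and stood in 16.4% of all windows. CAGAC was common, in 38% of all windows, and in windows of ID3, SKIL, SMAD3, SMAD7 and TGFBR1. All motifs were searched on both strands. None of the 3 capitalised motifs was in the ID1 window, which says only that these letters are not in these 250 bases. The windows held 19 CpG dinucleotides in ID1, 25 in SMAD6, 36 in SMAD3 and 13 in SMAD7, against a median of 11 over all windows.

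Of the 10 genes, 1 rose, 1 fell and 8 were not called in the CD276 knockouts. In bulk RNA a change in the share of cells that express a gene and a change of RNA per cell cannot be told apart. KLF10 rose 2.76-fold and ID1 fell, with control levels 1.79-fold those of the knockouts. The 2 called members are 20% of the 10, close to the 22.8% of all genes tested. The knockout and control libraries did not overlap for 8 of the 10, or 80%, where 65.9% of all genes tested did not. The median log2 fold change was 0.16 over the members and -0.005 over all genes tested, with 6 members above 0 and 4 below. The adjusted p values of ID2, SMAD3 and SMAD6 lay just above the threshold.

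**Figure D1:**
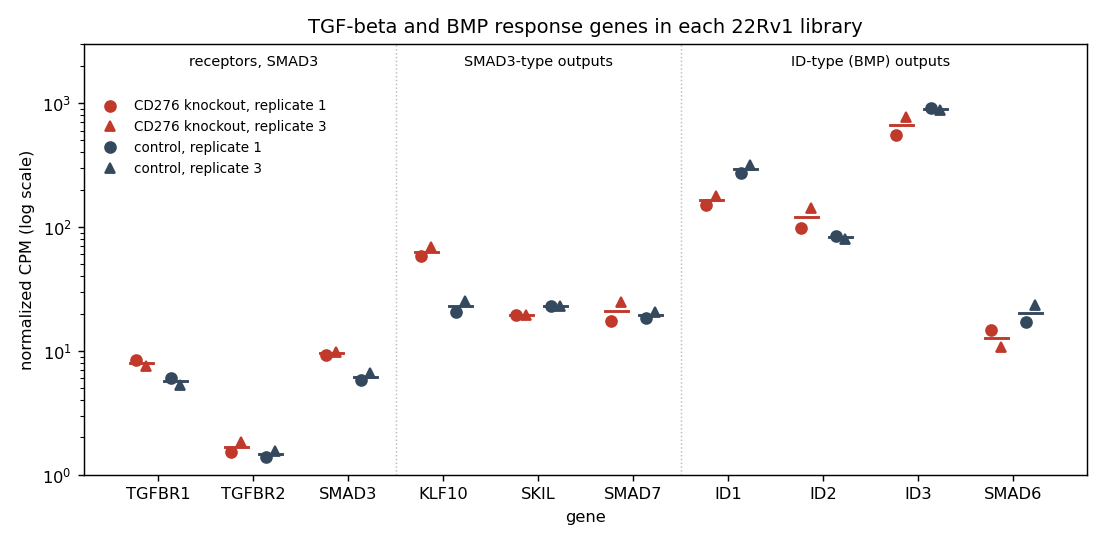
Normalized CPM (log scale) of each gene in each library, knockouts in red to the left of controls in dark blue; circles are replicate 1, triangles replicate 3 and bars the mean of 2 libraries. KLF10 lay at 58.0 and 68.5 in the knockouts, above both controls, and ID1 at 151 and 179, below both controls.

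The receptors and SMAD3 were low and their knockout means lay above the control means, but none passed the test. TGFBR1 (chromosome 9, 99104038 to 99154192, plus strand, GRCh38), the type I receptor kinase, was at 8.45 and 7.54 normalized CPM in knockout replicates 1 and 3, against 6.09 and 5.27 in control replicates 1 and 3 (log2 fold change 0.49 ± 0.22, edgeR adjusted p = 0.142). Both knockouts lay above both controls. TGFBR2 (chromosome 3, 30606502 to 30694142, plus strand), the ligand-binding type II receptor, was near the detection limit, with 40 and 48 counts in the knockouts and 31 and 30 in the controls, or 1.52 and 1.86 against 1.39 and 1.55 normalized CPM. Its groups overlapped and its SE was the largest of the members (0.20 ± 0.37, edgeR adjusted p = 0.727). TGFBR2 had the fewest counts of the 10 genes.

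SMAD3 (chromosome 15, 67063763 to 67195195, plus strand), the transducer of the TGF-beta arm, was at 9.33 and 9.74 normalized CPM in the knockouts, against 5.78 and 6.61 in the controls. The groups did not overlap and the knockouts lay 1.54-fold above the controls, yet the difference missed the threshold (0.62 ± 0.21, edgeR adjusted p = 0.064). Scaled by library totals alone it passed (0.73, adjusted p = 0.041); over the alternatives that kept all libraries the adjusted p ran from 0.041 to 0.0936. An opposite-strand gene, AC087482.1, overlaps 2% of the exonic sequence of SMAD3, and ID2-AS1 overlaps 1.7% of that of ID2; whether counting was strand-aware is not known here.

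Among the SMAD3-type outputs KLF10 rose while SKIL and SMAD7 were not called. KLF10 (chromosome 8, 102648779 to 102655902, minus strand) encodes a zinc finger repressor that TGF-beta induces early and that dampens SMAD7 expression. It had 1524 and 1771 counts in the knockouts and 456 and 492 in the controls, or 58.0 and 68.5 against 20.4 and 25.4 normalized CPM. The lower knockout value was well above the higher control value. The log2 fold change was 1.47 ± 0.17 (edgeR adjusted p = 0.00297), KLF10 was called under all 16 other fits, and it stayed called without any 1 of the 4 libraries, at 1.31 to 1.63.

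SKIL (chromosome 3, 170357678 to 170396835, plus strand), which encodes the SMAD co-repressor SnoN, was at 19.4 and 19.4 normalized CPM in the knockouts, against 23.0 and 23.2 in the controls. Replicates lay so close that the groups were apart, but the difference was small (-0.25 ± 0.16, edgeR adjusted p = 0.278). SMAD7 (chromosome 18, 48919853 to 48952052, minus strand), the inhibitory SMAD that recruits ubiquitin ligases to TGFBR1, was at 17.6 and 24.7 in the knockouts, against 18.5 and 20.7 in the controls (0.11 ± 0.20, edgeR adjusted p = 0.725). The knockouts lay on both sides of the controls, and the direction turned without knockout replicate 3 (-0.09, adjusted p = 0.662).

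The ID-type outputs parted from each other: ID1 fell, ID3 and SMAD6 lay below the controls without passing the test, and ID2 lay above them. ID1 (chromosome 20, 31605283 to 31606515, plus strand), the textbook BMP target, had 3963 and 4630 counts in the knockouts and 6120 and 6134 in the controls. That is 151 and 179 normalized CPM in the knockouts, against 274 and 317 in the controls, with no overlap (-0.84 ± 0.16, edgeR adjusted p = 0.0097). All 12 alternatives with every library called it lower, by -0.88 to -0.52, the smallest size being that of a fit corrected for GC content and length. The call was lost without control replicate 1 (-0.94, adjusted p = 0.0947) and without control replicate 3 (-0.73, adjusted p = 0.156), fits in which 1.65% and 3.15% of all genes tested were called.

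ID3 (chromosome 1, 23557918 to 23559794, minus strand) was the most abundant member, at 556 and 774 normalized CPM in the knockouts, against 908 and 872 in the controls (-0.42 ± 0.20, edgeR adjusted p = 0.158). Both knockouts lay below both controls but were far apart from each other. ID2 (chromosome 2, 8678845 to 8684453, plus strand), which like its relatives restrains differentiation, was at 98.9 and 143 in the knockouts, against 84.2 and 80.5 in the controls. The groups did not overlap, and the log2 fold change of 0.55 ± 0.18 missed the threshold narrowly (edgeR adjusted p = 0.0592). It passed under 5 of 12 alternatives with every library, among them DESeq2 (0.57, adjusted p = 0.0261), with adjusted p values from 0.00418 to 0.079 over the 12.

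SMAD6 (chromosome 15, 66702228 to 66782848, plus strand), the inhibitory SMAD of the BMP arm and the gene with the palindrome shown above, was at 14.7 and 10.8 normalized CPM in the knockouts, against 17.0 and 23.3 in the controls. All knockout values were below all control values, with a wide spread in both groups (-0.66 ± 0.23, edgeR adjusted p = 0.0682). Leaving out either knockout library let SMAD6 pass, at -0.88 without replicate 1 (adjusted p = 3.73e-07) and -0.38 without replicate 3 (adjusted p = 0.0285). Those fits called 45.7% and 48.3% of all genes tested. With every library kept, its adjusted p ran from 0.0184 to 0.141.

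**Figure D2:**
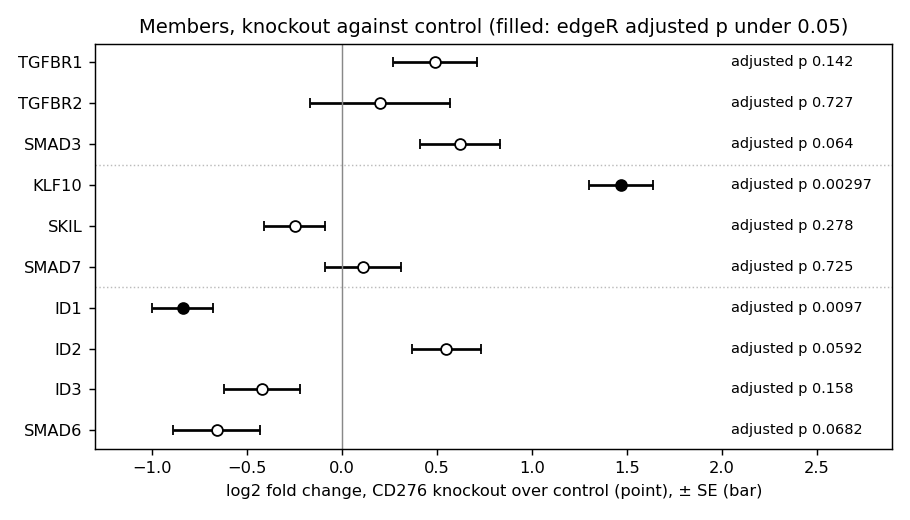
Log2 fold change of each gene (point) with its SE (bar), knockout over control, from edgeR; filled points passed an adjusted p of 0.05. KLF10 at 1.47 and ID1 at -0.84 are the filled points, and ID2 stands alone to the right of zero among the ID-type outputs.

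Differences between genes within a library do not depend on how libraries are scaled. That between the SMAD3-type and ID-type outputs set the knockouts apart from the controls, mostly through KLF10. Gene by gene the classes did not part: the log2 fold changes of SMAD7 (0.11) and SKIL (-0.25) lay between those of ID3 (-0.42) and ID2 (0.55). The mean log2 normalized CPM of the SMAD3-type outputs less that of the ID-type outputs was -1.96 and -1.92 in the knockouts, against -2.74 and -2.71 in the controls, a shift of 0.79. The replicates of a group lay within 0.04 of each other, but the members were chosen with results known and no p is given for this score. KLF10 carried most of it: without KLF10 the values were -2.51 and -2.47 in the knockouts and -2.74 and -2.79 in the controls, a shift of 0.27. Leaving out SMAD7, which both arms induce, gave a shift of 0.96, and leaving out ID2 gave 1.08. In a fit corrected for GC content and length the fitted difference was 0.55, against 0.78 without them.

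The ratio of KLF10 to ID1 in CPM was 0.385 and 0.383 in the knockouts, against 0.0745 and 0.0802 in the controls, a 4.96-fold shift. The ratio of ID2 to ID1 was 0.655 and 0.799 in the knockouts, against 0.307 and 0.254 in the controls, a 2.59-fold shift. ID2 also gained on ID3: the log2 difference was -2.49 and -2.44 in the knockouts and -3.43 and -3.44 in the controls. For the inhibitory pair, SMAD7 less SMAD6 was 0.25 and 1.19 in the knockouts and 0.12 and -0.18 in the controls, with a gap between knockouts larger than that between the groups. The groups did not overlap for any of the 8 such pairs computed. The pairs were picked from members whose results were known, and 8 of the 10 members did not overlap singly, so this count is no test. The share over other pairs of genes was not computed. The exact permutation test over libraries (two-sided, 2 against 2) gave p = 0.333 for each pair, the smallest p this design allows.

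**Figure D3:**
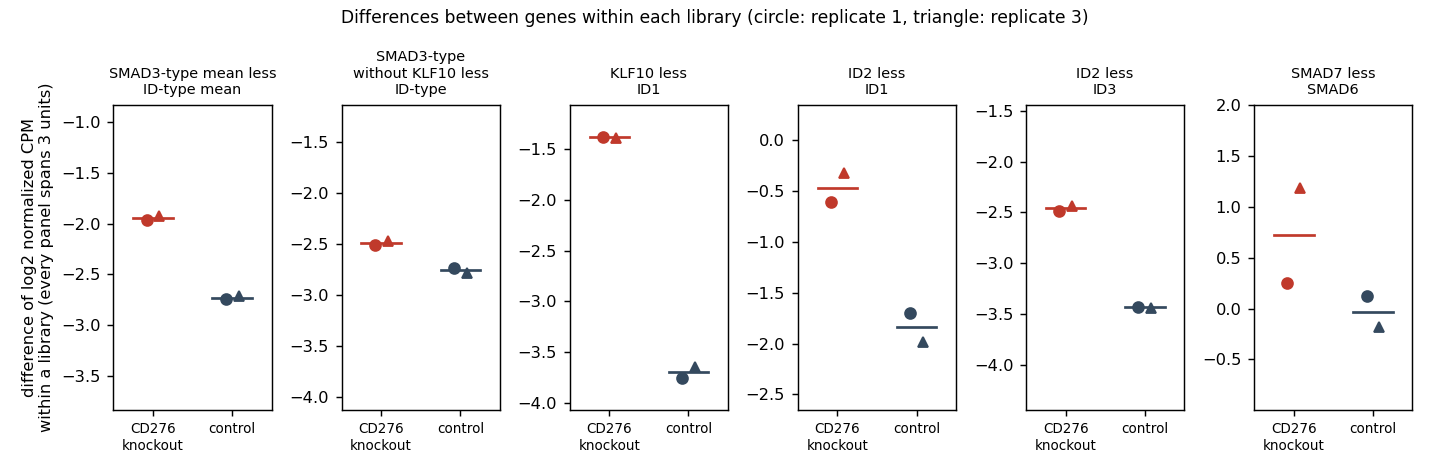
Difference of log2 normalized CPM between genes within each library, knockouts (red) left of controls (dark blue); circles are replicate 1, triangles replicate 3, bars means, and every panel spans 3 log2 units. The SMAD3-type less ID-type difference sits at -1.96 and -1.92 in the knockouts, above both controls, and moves closer to the controls once KLF10 is left out.

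Per length of exonic sequence the 10 genes kept 1 order in all 4 libraries: ID3, ID1, ID2, KLF10, SMAD7, SKIL, SMAD6, TGFBR1, SMAD3 and TGFBR2. In normalized CPM per kilobase ID3 averaged 369.9 ± 86.0 in the knockouts and 495.5 ± 14.2 in the controls, ID1 134 ± 16.1 in the knockouts and 239.6 ± 24.4 in the controls, and ID2 54.9 ± 14.2 in the knockouts and 37.35 ± 1.17 in the controls. KLF10 followed at 15.8 ± 1.84 in the knockouts and 5.72 ± 0.88 in the controls, and TGFBR2 came last at 0.359 ± 0.050 in the knockouts and 0.312 ± 0.024 in the controls. The nearest neighbours were TGFBR1 and SMAD3, at 1.17 ± 0.095 and 1.05 ± 0.032 in the knockouts, where SMAD6 at 1.49 ± 0.32 lay within about 1 SD of TGFBR1. Of the summed per-length level of ID1, ID2 and ID3, ID2 made up 9.41% and 10.1% in the knockouts, against 4.98% and 4.69% in the controls. The ID1 share was 25.7% and 22.7% in the knockouts, against 29% and 33% in the controls, and the sum itself was 476 and 641 in the knockouts, against 766 and 779 in the controls.

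The other genes of the pathway were called as often as genes at large. Of 117 ligands, antagonists, receptors, SMADs, cofactors, targets and E proteins 92 could be tested, and 13 rose, 8 fell and 71 were not called. Their 22.8% called equals the share of all genes tested, with a median log2 fold change of 0.28 against -0.005. Without control replicate 1 or without control replicate 3 most of the 21 calls were lost, as were most calls over all genes tested. INHBA and FST kept theirs. With 1 library left out, log2 fold changes ran from 0.71 to 0.97 for SMAD5 and from 0.70 to 1.66 for CDKN1A. Fewer than 3 calls were lost in each alternative with every library except the fit corrected for GC content and length, which kept 18 of the 21 and lost BMP8A, BMPR1A and TWSG1.

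Upstream of the receptors, the activin gene and its antagonist fell together. INHBA, which encodes the activin A subunit, was at 48.8 and 69.4 normalized CPM in the knockouts, against 142 and 143 in the controls (-1.27 ± 0.18, edgeR adjusted p = 0.00467). FST, which encodes the activin-binding protein follistatin, was at 37.7 and 50.1 in the knockouts, against 111 and 103 in the controls (-1.28 ± 0.17, edgeR adjusted p = 0.00377). Both genes had every knockout value below every control value. Of 7 TGF-beta and activin ligands tested INHBA was the 1 called, or 14.3%, against 22.8% of all genes tested. TGFB1, the main TGF-beta ligand, was at 28.8 and 64.7 in the knockouts, against 36.7 and 44.0 in the controls (0.21 ± 0.32, edgeR adjusted p = 0.664). TGFB1 was chosen after its values were seen.

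Of 6 latent TGF-beta genes LTBP4, a latent TGF-beta binding protein, fell (-0.62 ± 0.15, edgeR adjusted p = 0.0242). Of 7 BMP and GDF ligands BMP6 rose (1.16 ± 0.34, edgeR adjusted p = 0.0408), at 4.57 and 5.68 normalized CPM in the knockouts, against 1.66 and 2.94 in the controls. BMP8A fell on low counts, 21 and 19 in the knockouts and 49 and 53 in the controls (-1.67 ± 0.39, edgeR adjusted p = 0.0187), and PPIEL on the opposite strand overlaps 15.8% of its exonic sequence. Among 7 extracellular antagonists SOSTDC1, a BMP antagonist (1.21 ± 0.33), and TWSG1, a BMP-binding protein (0.53 ± 0.15), rose beside the fall of FST (edgeR adjusted p = 0.031 and 0.0342). SOSTDC1 was low, with 87 and 81 counts in the knockouts and 30 and 28 in the controls. The called genes are 16.7% of the latent TGF-beta genes, 28.6% of the BMP and GDF ligands and 42.9% of the antagonists. Over all genes tested the share was 22.8%.

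BMPR1A, BMPR1B, SMAD1 and SMAD5, members of the BMP arm, rose. ACVR1 (0.84 ± 0.37), BMPR2 (0.51 ± 0.17) and SMAD9 (0.10 ± 0.16), named after their values were seen, were not called (edgeR adjusted p = 0.126, 0.0621 and 0.669). Among BMP outputs ID1 and ID4 fell, ID3 and SMAD6 lay below the controls without being called, and ID2 lay above them. Of the 9 further BMP-type targets tested, ID4 among them, 7 had a positive log2 fold change, with a median of 0.10. Of 13 other receptors and co-receptors 3 rose, 0 fell and 10 were not called, with a median of 0.51. The 3 called are 23.1% of the 13, close to the 22.8% of all genes tested. By DESeq2 3 were called higher and 0 lower; 2 were called higher in the fit to nuclear protein-coding genes and in that corrected for GC content and length, each of which lost BMPR1A (adjusted p up to 0.0622). BMPR1A, a BMP receptor, was at 24.6 and 20.8 normalized CPM in the knockouts, against 14.3 and 15.8 in the controls (0.59 ± 0.18, edgeR adjusted p = 0.0429). BMPR1B, its close relative, was at 30.1 and 23.5 in the knockouts, against 14.9 and 15.8 in the controls (0.80 ± 0.18, edgeR adjusted p = 0.0177). ACVR1B, the activin type I receptor, rose too (0.74 ± 0.15, edgeR adjusted p = 0.0114).

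SMAD1 and SMAD5, which BMP receptors phosphorylate, rose among 5 other SMADs. The 2 called are 40% of the 5, against 22.8% of all genes tested. SMAD1 was at 14.7 and 10.3 normalized CPM in the knockouts, against 5.69 and 4.60 in the controls (1.28 ± 0.25, edgeR adjusted p = 0.0111). SMAD5 was at 49.5 and 42.8 in the knockouts, against 25.7 and 27.3 in the controls (0.80 ± 0.15, edgeR adjusted p = 0.0108). For both, every knockout value lay above every control value. SMAD2 (0.47 ± 0.16, edgeR adjusted p = 0.0602), SMAD4 (0.30 ± 0.19, edgeR adjusted p = 0.27) and SMAD9 (0.10 ± 0.16, edgeR adjusted p = 0.669), named after their values were seen, were not called.

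Of 19 cofactors and turnover genes 2 rose, 2 fell and 15 were not called. The 4 called are 21.1% of the 19, close to the 22.8% of all genes tested. STRAP, a receptor-associated protein that holds SMAD7 at the receptor, rose (265 and 262 normalized CPM in the knockouts, against 149 and 152 in the controls; 0.81 ± 0.14, edgeR adjusted p = 0.00697). TRIM33, a ubiquitin ligase that acts on SMAD4, fell (-0.57 ± 0.14), and NEDD4L, a ligase for activated SMAD2 and SMAD3, rose (0.57 ± 0.15; edgeR adjusted p = 0.0207 and 0.0313).

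Among further targets of the SMAD3 arm calls went in both directions. Of 18 further SMAD3-type targets 3 were called, 2 higher and 1 lower, and the median of all 18 was 0.34. The 3 called are 16.7% of the 18, against 22.8% of all genes tested. BHLHE40, a circadian and stress repressor (1.53 ± 0.35), and CDKN1A, the p21 cell cycle inhibitor that p53 also induces (1.22 ± 0.28), rose, and the collagen gene COL1A1 fell (-1.0 ± 0.21; edgeR adjusted p = 0.0172, 0.0183 and 0.0139). BHLHE40 was low, with 78 and 100 counts in the knockouts and 25 and 24 in the controls. CDKN1A was at 148 and 300 normalized CPM in the knockouts, against 93.2 and 98.8 in the controls. Of 9 further BMP-type targets ID4, the remaining ID gene, fell and 8 were not called. The 1 called is 11.1% of the 9, against 22.8% of all genes tested. The log2 fold change was positive for 7 of the 9, with a median of 0.10. ID4 was at 119 and 147 normalized CPM in the knockouts, against 195 and 205 in the controls (-0.59 ± 0.15, edgeR adjusted p = 0.027). Of the 3 E proteins that ID proteins bind, TCF12 rose (0.76 ± 0.16, edgeR adjusted p = 0.0151), at 50.5 and 40.6 in the knockouts, against 27.0 and 26.9 in the controls. TCF12 is 33.3% of these 3, against 22.8% of all genes tested.

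**Figure D4:**
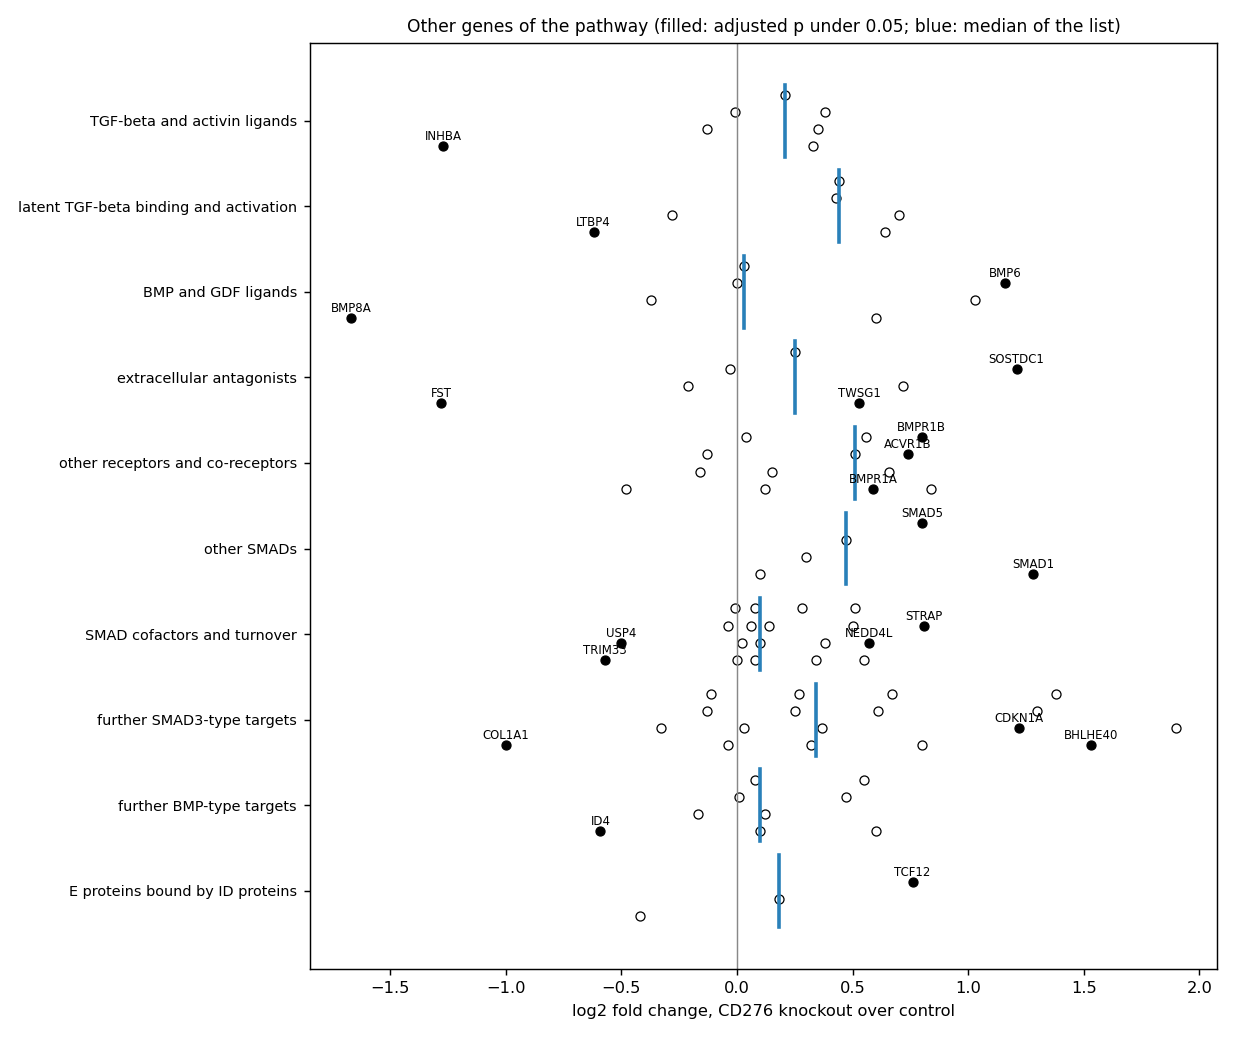
Log2 fold change, knockout over control, of each tested gene of the other pathway lists; filled points with names passed an edgeR adjusted p of 0.05 and blue bars are list medians. The 3 named receptors and the 2 named SMADs all lie to the right of zero, and INHBA and FST lie at -1.27 and -1.28.

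KLF10 and the ID genes are also early serum response genes, and immediate early genes differed strongly between the 2 knockout libraries. FOS was at 7.01 and 329 normalized CPM in knockout replicates 1 and 3, against 76.2 and 76.0 in control replicates 1 and 3, and EGR1 at 25.3 and 372 in the knockouts, against 76.8 and 85.5 in the controls. The 20 genes of that list summed to 943 and 2894 in the knockouts, against 1181 and 1322 in the controls; 2 rose, 0 fell and 18 were not called. Those that rose were BTG2 (2.22 ± 0.25, edgeR adjusted p = 0.00287) and EGR2 (3.31 ± 0.95, edgeR adjusted p = 0.0389), the second on 12 and 77 counts in the knockouts and 3 and 4 in the controls. The EGR2 call was lost by limma voom (2.65, adjusted p = 0.137) and without knockout replicate 3 (1.48, adjusted p = 0.256), control replicate 1 (3.02, adjusted p = 0.172) or control replicate 3 (3.63, adjusted p = 0.0938). The 2 called are 10% of the list, against 22.8% of all genes tested. Both knockouts lay above both controls for 6 of the 20, among them BTG2 and EGR2, and below them for 0. The groups overlapped for 14. They did not overlap for 30% of the list, against 65.9% of all genes tested. Knockout replicate 3 was higher than knockout replicate 1 for 19 of the 20. Knockout replicate 3 less knockout replicate 1 was 5.55 on the log2 scale for FOS and 3.88 for EGR1. The same difference was 0.24 for KLF10, 0.25 for ID1, 0.53 for ID2, 0.48 for ID3 and 0.49 for SMAD7. Control replicate 3 less control replicate 1 was 0.31 for KLF10, 0.21 for ID1, -0.06 for ID2, -0.06 for ID3 and 0.16 for SMAD7. SMAD6 went the other way in the knockouts, at -0.45, against 0.46 in the controls. The part of the early response genes in the results for KLF10, ID1, ID2, ID3 and SMAD7 was not tested.

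The pathway gene whose pattern over the 4 libraries was most like that of KLF10 was BHLHE40, at a Euclidean distance of 0.157 in centred log2 CPM among 101 pathway genes. Over 11644 genes with at least 5 normalized CPM the nearest were PGAM1, a glycolytic mutase (0.092), CKS2, a cell cycle kinase subunit (0.095), and BCKDHB, a subunit of branched-chain keto acid dehydrogenase (0.155). Nearest to ID1 among the pathway genes were LTBP4 (0.234), ID4 (0.266) and TRIM33 (0.323), and over all genes DCLK2, a doublecortin-like kinase (0.049), and HSPB6, a small heat shock protein (0.060). Nearest to SMAD3 were TWSG1 (0.124) and BMPR1A (0.221) among the pathway genes and PEPD, a dipeptidase (0.018), over all genes. With 4 libraries these distances mostly describe the contrast between the groups and carry no test.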

How the data were processed

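Per the labels' protocols, the 4 libraries of 22Rv1 RNA were poly(A)-selected, prepared with TruSeq reagents and read from both ends. Raw gene counts were deposited by the authors in 1 table. Trimmomatic 0.36, STAR 2.5.2b, featureCounts (Subread 1.5.2) and GRCh38 are named, per the submitters' processing notes. How strand and multi-mapping reads were handled, and which annotation was counted, is not stated there. The 486 of 57500 rows without a gene name (0.0191% to 0.029% of a library's counts) were left out.

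The quasi-likelihood test of edgeR 4.0.16 (R 4.3.3; glmQLFit and glmQLFTest, robust=TRUE) was run on group alone, leaving 2 residual degrees of freedom. Low genes were removed by filterByExpr and libraries scaled with TMM, whose factors were 1.07 and 1 for knockout replicates 1 and 3 and 0.962 and 0.965 for control replicates 1 and 3. The Benjamini-Hochberg adjustment covered 18043 genes. The SE is the log2 fold change divided by the square root of F. The fit was also run on simulated counts in which every gene had the same dispersion. Genes here differ in spread, so that run cannot show how reliable the present calls are. The biological coefficient of variation was 0.158 and 1 CPM stood for 20.1 to 25.8 counts. Gene positions and exonic lengths came from GENCODE 29 on GRCh38.

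The members and lists were chosen with earlier results of these data known. The rule for named genes takes the members, CD276, up to 3 called genes of each list with the smallest p, KRT8, FOS, EGR1 and the nearest genes; of those, 1 lncRNA and some near neighbours are not described, and 1 further gene is not reported here. All 167 list genes were found in the table, CCN1 and CCN2 under older symbols. Alternatives were other scalings, filters, DESeq2 1.42.0, limma 3.58.1 voom, robust=FALSE, a replicate block, no mitochondrial genes and each library left out; a fit to nuclear protein-coding genes, offsets for GC content and transcript length, and lists without SMAD7, ID2 or KLF10 were added after seeing the data.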

Additional observations from a re-analysis of the deposited data

How the results depend on the processing

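No member changed direction under the 12 alternatives that kept every library, and KLF10 and ID1 were called in all of them. The count of called members was 2; among the alternatives with every library it was 3 by DESeq2 and 3 with GC and length offsets (both with ID2), 4 under library totals alone (with ID2 and SMAD3), 4 without a filter on low counts and 4 with the replicate block (both with ID2 and SMAD6), and 2 in the others. It ran from 1 to 7 when single libraries were left out. The count of all called genes, 4111, ran from 312 to 9198 when single libraries were left out. Omitting control replicate 1 gave 312 and control replicate 3 gave 599; omitting knockout replicate 1 gave 8713 and knockout replicate 3 gave 9198. Such fits take the lone library's spread from the other group. The labels do not say that equal replicate numbers mark a shared culture or day, and deviations of same-numbered libraries from their group means had a correlation of -0.0686 across 11645 genes, so the block is a check only.

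The fitted SMAD3-type less ID-type difference of 0.78 was 0.77 to 0.81 when single libraries were left out, 0.55 with GC and length offsets, 0.95 without SMAD7, 1.08 without ID2 and 0.27 without KLF10. Over the fits with 1 library left out SMAD7 ran from -0.09 to 0.35, FOS from -3.37 to 2.13 and EGR1 from -1.61 to 2.21, each lowest without knockout replicate 3. FOS also turned to -0.67 by limma voom and to -0.52 with the replicate block; the cause was not tested. Counts of TGFBR2, 30 to 48 per library, limit what its comparison can show. TGFBR2 has no value under the filter of at least 50 counts.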
